A study of Mus musculus with 10 samples.

Results

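The Spata genes carry the name "spermatogenesis associated", which was given for expression in the testis or in male germ cells and not for common descent, so the group holds proteins of unlike kinds. They were taken as the genes whose array probes map, by accession, to a mouse symbol of Spata followed by a digit, and where a gene had several probes the brightest stood for it. In all, 28 Spata genes were measured among 16738 named genes tested, through 41 tested probes of 43 on the array. The testes came from 10 male C57BL/6N mice at 6 weeks (42 days) of age, 1 testis and 1 array per mouse, 5 in each of 2 groups. The mothers of the R offspring ate 50% of what control mothers took per day on average, starting at 6.5 days post coitum, and their sons were fostered to control females unrelated to them. The mothers of the C offspring ate freely and nursed their own sons. Both groups ate regular chow freely after weaning. Fostering therefore came with restriction in every R animal, and the effects of the restricted diet and of fostering cannot be told apart.

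Male germ cells divide as spermatogonia, pass through meiosis as spermatocytes and are remodelled as spermatids into sperm, with Sertoli cells as their support. Several Spata proteins act in that last step. SPATA6 builds the coupling between sperm head and tail in mice, SPATA19 and SPATA33 act at the mitochondria of the tail's midpiece, and SPATA46 lies at the nuclear envelope. Others are named for the testis but work in many tissues. SPATA2 links the deubiquitinase CYLD to the ubiquitin ligase complex LUBAC in tumour necrosis factor signalling, SPATA5 and SPATA5L1 are ATPases of ribosome maturation in human cells, SPATA7 belongs to the connecting cilium of photoreceptors, and SPATA13 is an exchange factor for small GTPases.

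The promoters shown first belong to Spata31d1a and Spata31d1b, neighbours on chromosome 13 with no protein-coding gene between them, whose signals differed in their relation to the groups (given further on). They are RefSeq sequences of the build GRCm38.p6, from 250 bases before to 50 bases after the annotated start. Spata31d1a is at chr13:59706148-59706447 on the minus strand and Spata31d1b at chr13:59712034-59712333 on the plus strand. Capitals mark the 26 bases of each that were not identical in a global alignment, bases paired with a gap included. The windows begin at different points of the shared stretch. The run of capitals near the end of Spata31d1b therefore faced gaps and holds no substitutions. The same holds for the run at the start of Spata31d1a, except for its last base. That base was paired with the first base of Spata31d1b and differs from it.
Spata31d1a: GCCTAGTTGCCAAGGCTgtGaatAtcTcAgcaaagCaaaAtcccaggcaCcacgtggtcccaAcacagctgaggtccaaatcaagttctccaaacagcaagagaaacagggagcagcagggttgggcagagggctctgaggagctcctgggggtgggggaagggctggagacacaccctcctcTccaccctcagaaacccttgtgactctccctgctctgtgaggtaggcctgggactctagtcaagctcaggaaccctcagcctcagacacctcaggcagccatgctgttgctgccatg
Spata31d1b: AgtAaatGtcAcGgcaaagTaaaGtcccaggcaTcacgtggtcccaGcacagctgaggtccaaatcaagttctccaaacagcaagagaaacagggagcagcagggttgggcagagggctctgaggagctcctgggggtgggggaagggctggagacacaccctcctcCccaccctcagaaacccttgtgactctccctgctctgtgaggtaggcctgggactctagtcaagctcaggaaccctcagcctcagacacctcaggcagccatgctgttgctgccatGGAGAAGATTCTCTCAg
Of 316 aligned columns, which include those with a gap at the ends, 274 (86.7%) were identical. The longest run without a difference was 120 bases. Counted in the same way, the other pairs of Spata31 promoters were 44.7% to 62.7% identical. The letters GTTGCC, the core of the X-box motif, were found in the Spata31d1a window, with its first base at position -245 from the gene's start. They lie in the opening stretch of that window, which has no counterpart inside the Spata31d1b window. GTTGCC was found in neither orientation in the Spata31d1b window, but that window does not reach the matching place, so no difference in sequence is shown there.

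Another window is that of Spata5l1, a gene with lower signal in R testes, at chr2:122630375-122630674 on the plus strand. Capitals mark CGTCA, the reverse complement of TGACG, which is the core of the cyclic AMP response element.
Spata5l1: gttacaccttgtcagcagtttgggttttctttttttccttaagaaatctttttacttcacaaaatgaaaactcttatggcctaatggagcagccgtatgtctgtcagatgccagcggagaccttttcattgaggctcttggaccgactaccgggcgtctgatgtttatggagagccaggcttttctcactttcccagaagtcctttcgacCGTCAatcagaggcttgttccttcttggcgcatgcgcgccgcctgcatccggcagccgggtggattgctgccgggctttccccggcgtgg
Of the 28 genes, 26 had a promoter window in the RefSeq table, and each motif was searched on both strands. TGACG was present in 9 of the 26 (34.6%) and in 23.0% of all 27025 genes with a window. The full element TGACGTCA, which contains TGACG, was present in 1 (3.85%), Spata7, against 2.03% of all genes. GTTGCC was present in 4 (15.4%), namely Spata31d1a, Spata33, Spata4 and Spata45, against 14.1% of all genes. These counts describe letters in a window and no binding. Spata31d1a was chosen for printing by a rule on its difference, and Spata31d1b and Spata5l1 were chosen after their values were seen.

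Values are log2 intensities relative to each array's 75th percentile, called the log2 signal, and the level of a probe is not comparable with that of another probe. Between 54.6% and 65.9% of probes were well above background per array, the 75th percentile intensity lay between 804 and 1019, and 0 spots were saturated. The arrays sat on 2 slides. Slide 1 held R1 to R4 with C1 and C2, and slide 2 held R5 with C3 to C5. C2 stood apart from the other arrays, with 123 on the first principal component against 13.9 to 29.5 in the other C testes and -49.2 to -33.6 in R testes. The authors' deposited table put R1 on its control side and C5 on its test side, against the labels, so each called gene is also given without these arrays.

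The testis was recognisable in both groups. Prm1, a protamine of sperm chromatin, averaged 7.80 ± 0.19 in R testes and 7.57 ± 0.16 in C testes (SD, n = 5 each). All 28 Spata genes were well above background on all 10 arrays, as were 91.3% of all named genes tested. Among the marker lists, 0 of 7 round spermatid genes and 1 of 7 elongating spermatid genes were called at an adjusted p under 0.05. Over all genes 14.9% were called higher and 20.6% lower in R testes. The counts of every list, here and further on, are to be read beside these shares. Sertoli cell genes were called lower in R testes in 7 of 8 cases (median difference -0.48), with Amh not tested. Their mean log2 signal ranged from 0.82 to 1.05 over R testes and from 1.08 to 1.86 over C testes. The called genes numbered 4 lower of 6 for macrophages (median -0.55), 3 lower of 7 for Leydig cells (-0.28), 3 lower of 8 for spermatocytes (-0.14), and 4 lower and 2 higher of 8 for spermatogonia (-0.27). Of 4 endothelial genes 2 were called higher (median 0.49), and of 4 peritubular myoid genes 1 was called higher (median 0.06). Of 4 adipocyte genes 0 were called, with a median of 0.99, and their mean log2 signal ranged from -1.35 to 0.44 over R testes and from -3.45 to 0.21 over C testes. Cfd, the adipocyte factor adipsin, averaged 0.20 ± 1.53 in R testes and -2.83 ± 3.21 in C testes (adjusted p = 0.107), and Fabp4, a fatty acid carrier, averaged -1.41 ± 1.12 in R testes and -3.52 ± 2.33 in C testes (adjusted p = 0.120). Adipoq and Plin1, of the same list, went the other way, with differences of -0.25 and -0.14 (adjusted p = 0.254 and 0.577 from limma). In a whole testis, fewer cells of a type and less RNA per cell cannot be told apart, and the part of these lists in the Spata values was not tested.

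Across the array, 35.6% of genes were called, 14.9% higher and 20.6% lower in R testes. Of the 28 Spata genes 4 were called (14.3%), with Spata31d1a and Spata31d1c higher and Spata13 and Spata5l1 lower. Of all called genes 42.0% were higher, but 12.7% were when the array median took the place of the 75th percentile, which moved every difference by -0.21. With the array median 1 Spata gene was called higher (Spata31d1a) and 7 lower, while 42.7% of all genes were called. Signs of small differences therefore depend on the reference level. The study's own criterion, which adds a fold above 1.5 or under 0.66, was met by 9.9% of genes and by 1 Spata gene, Spata31d1a. The groups did not overlap for 29.1% of genes and for 3 Spata genes (10.7%), Spata31d1a, Spata13 and Spata19. By probe, 38.6% of all tested probes and 7 of the 41 Spata probes were called.

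The Spata differences were small as well as seldom called. Their median size without regard to sign was 0.08 on the log2 scale, against 0.24 over all genes. Over all genes in the brightest quartile, which holds 20 of the 28 Spata genes, it was 0.17, and in the dimmest 0.31. The comparisons with all genes that follow are not matched for brightness. A difference under 0.2 in size was found for 21 of 28 (75%), against 43.3% of all genes. The 95% interval of the difference lay within 0.5 of zero for 21 of 28 (75%), against 50.7%. The median standard error was 0.084 for Spata genes and 0.108 for all genes. The sign was positive for 17 of 28 (60.7%), against 47.0% of all genes, and the median difference was 0.03, against -0.03 (5 positive and a median of -0.17, against -0.23, with the array median as the reference).

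**Figure D1:**
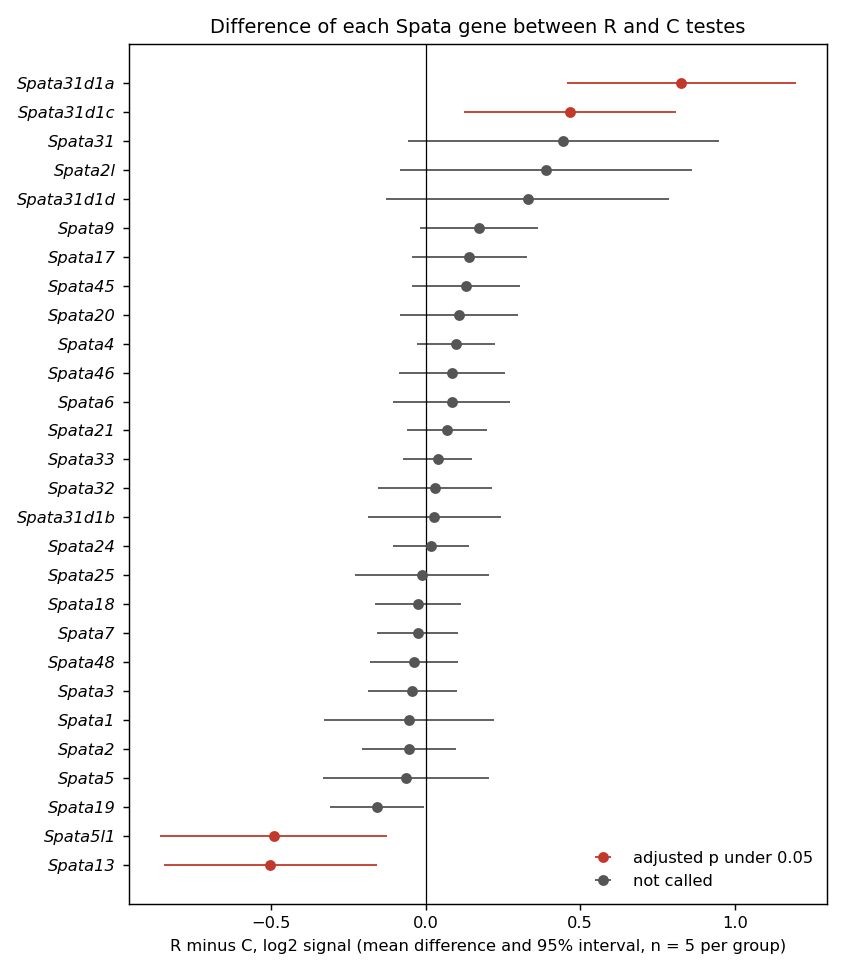
Difference in log2 signal (R minus C, horizontal axis) of each of the 28 Spata genes, with the 95% interval from the fit on all probes (n = 5 per group). The 2 called genes at the top and the 2 at the bottom, in red, lie farther from zero than the other 24, and 21 of 28 differences are under 0.2 in size.

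Of the 28 genes, 20 had a probe in the brightest quartile of the genes tested, and 0 of those 20 were called, against 33.6% of all genes in that quartile. The 20 had adjusted p values of 0.0918 or more from limma. In the dimmest quartile both Spata genes were called (Spata13 and Spata5l1), against 28.3% of all genes there. In the second quartile the 1 Spata gene was called (Spata31d1a), against 40.0% of all genes. In the third quartile 1 of 5 was called (Spata31d1c), against 40.4%. These counts of Spata genes are too small to show a trend with brightness. Brightness here is that of probes, which depends on the probe as well as on the transcript.

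Spata31 genes are a family of spermatid proteins that has expanded by duplication. The 5 members measured all lie on chromosome 13, where Spata31d1a, Spata31d1b and Spata31d1d follow each other, and Spata31 and Spata31d1c stand side by side elsewhere on it. All 5 differences were positive (4 with the array median as the reference, where that of Spata31d1b was -0.18), 2 were called higher and 0 lower, and the median was 0.44 (0.24 with the array median). Over the other 23 Spata genes the median was 0.02 (-0.19 with the array median), with 0 called higher and 2 lower. The copies are alike, so a probe of 1 copy may also bind the transcript of another.

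Spata31d1a had log2 signals of -0.53, -0.52, -0.51, -0.73 and -0.55 in R testes, against -1.40, -1.95, -1.06, -0.99 and -1.58 in C testes. Every R value was above every C value, and the C values were the more scattered. The means were -0.57 ± 0.09 in R testes and -1.39 ± 0.39 in C testes (SD, n = 5 each). The signal was 1.77-fold higher in R testes (95% interval 1.37 to 2.29, log2 difference 0.83, SE 0.17, adjusted p = 0.00584 from limma). It was called with any 1 array left out, with differences of 0.69 to 0.93 and adjusted p values of 0.00269 to 0.0170, the smallest being without C2. Without R1 and C5 together the difference was 0.77 (adjusted p = 0.0389). Within slide 1 it was 1.10 and within slide 2 it was 0.66 (adjusted p = 0.0134 and 0.225).

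Spata31d1c had log2 signals of 1.78, 1.54, 1.91, 1.63 and 1.64 in R testes, against 1.30, 0.74, 1.52, 1.56 and 1.04 in C testes. The lowest R testis lay below the highest C testis, so the groups overlapped. The means were 1.70 ± 0.14 in R testes and 1.23 ± 0.34 in C testes, and the signal was 1.38-fold higher in R testes (1.09 to 1.75, log2 difference 0.47, SE 0.15, adjusted p = 0.0375). The call was lost without any 1 of R1, R3, R4, R5, C1 and C5, with adjusted p values of 0.0559 to 0.0821 and differences of 0.41 to 0.48. Without C2 the difference was 0.34 (adjusted p = 0.0457), and without R1 and C5 together it was 0.40 (adjusted p = 0.142). It was also not called with the array median as the reference (0.26, adjusted p = 0.119), with array weights (0.28, adjusted p = 0.0571) or with no filter on dim probes (adjusted p = 0.0791). It was 0.69 within slide 1 and 0.27 within slide 2 (adjusted p = 0.0337 and 0.514).

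The other 3 family members were not called. Spata31 had log2 signals of 3.25, 3.23, 3.69, 3.64 and 3.43 in R testes, against 2.62, 2.30, 3.35, 3.49 and 3.27 in C testes (difference 0.44, adjusted p = 0.137). Spata31d1d had 0.95, 0.81, 1.32, 1.18 and 1.20 in R testes, against 0.47, 0.11, 1.02, 1.23 and 1.0 in C testes (difference 0.33, adjusted p = 0.215). In both genes C1 and C2 were the lowest arrays and C3 to C5 lay among the R testes. Spata31d1b had 0.46, 0.44, 0.47, 0.19 and 0.45 in R testes, against 0.41, 0.06, 0.43, 0.47 and 0.48 in C testes. Its difference was 0.03, with a 95% interval of -0.19 to 0.24 and an adjusted p of 0.831. All 5 family members were lowest in C2. Their median difference was 0.78 within slide 1 (range 0.15 to 1.10) and 0.12 within slide 2 (range -0.02 to 0.66).

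**Figure D2:**
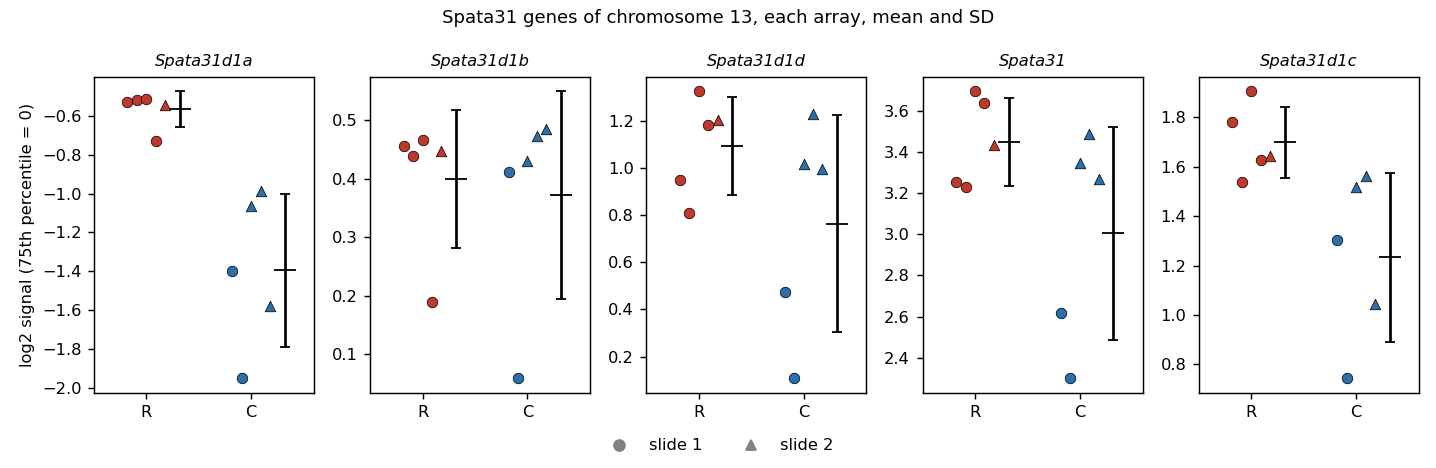
Log2 signal (vertical axis, the array's 75th percentile at 0, each panel on its own scale) of the 5 Spata31 genes in each R and C testis, circles for slide 1 and triangles for slide 2, with mean and SD (n = 5). Spata31d1a shows no overlap between the groups, while Spata31d1b overlaps throughout apart from 1 low array in each group.

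Spata31d1a and Spata31d1b share most of their promoter letters, as printed above, and the 2 probes were compared within each array. The pair was chosen after its values were seen. The log2 ratio of the Spata31d1a to the Spata31d1b signal was -0.99, -0.96, -0.98, -0.92 and -0.99 in R testes, against -1.81, -2.01, -1.49, -1.46 and -2.06 in C testes. The R ratios lay close together and above all C ratios. The means differed by 0.80 (-0.97 ± 0.03 in R testes and -1.77 ± 0.28 in C testes, SD, n = 5 each). The difference was 0.74 without C2, 0.95 within slide 1 and 0.68 within slide 2. These values describe a pair picked for its contrast and carry no test, and the level of the ratio is not an abundance.

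Spata13 encodes ASEF2, an exchange factor for the small GTPases Rac1 and Cdc42 that binds the tumour suppressor APC. Its log2 signals were -3.22, -3.31, -3.36, -3.82 and -3.17 in R testes, against -2.62, -2.57, -3.06, -3.16 and -2.96 in C testes. The groups did not overlap, but the highest R testis and the lowest C testis differed by only 0.01. The means were -3.38 ± 0.26 in R testes and -2.87 ± 0.27 in C testes, and the signal was 1.42-fold lower in R testes (1.12 to 1.80, log2 difference -0.50, SE 0.15, adjusted p = 0.0288). The call was lost without any 1 of R3, R4, C1 and C2, with differences of -0.51 to -0.39 and adjusted p values of 0.0508 to 0.0615, and without R1 and C5 together (-0.56, adjusted p = 0.0667). It was also lost with array weights (-0.38, adjusted p = 0.0515) and with no filter (adjusted p = 0.0627). It was -0.83 within slide 1 and -0.11 within slide 2 (adjusted p = 0.0207 and 0.597). Of 5 partner genes, Rac1, a GTPase that ASEF2 activates, was 1.48-fold lower (adjusted p = 0.0188), Ppp1r9b was 1.18-fold higher (adjusted p = 0.0157, and 0.742 with the array median), and 3 were not called.

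Spata5l1 encodes an AAA-type ATPase that works with SPATA5 and CINP in human cells on late steps of the large ribosomal subunit. Its log2 signals were -2.94, -2.62, -2.57, -2.42 and -2.88 in R testes, against -2.02, -1.70, -2.44, -2.51 and -2.29 in C testes. C1 and C2 were the highest arrays, and C3 and C4 lay among the R testes. The means were -2.68 ± 0.22 in R testes and -2.19 ± 0.33 in C testes, and the signal was 1.41-fold lower in R testes (1.09 to 1.81, log2 difference -0.49, SE 0.17, adjusted p = 0.0392). The call was lost without any 1 of R1, R2, R3, R5, C1, C2 and C5, with differences of -0.52 to -0.37 and adjusted p values of 0.0552 to 0.0897, and without R1 and C5 together (-0.45, adjusted p = 0.117). It was also lost with array weights (-0.30, adjusted p = 0.0777) and with no filter (adjusted p = 0.0812). Within slide 1 it was -0.78 and within slide 2 it was -0.47 (adjusted p = 0.0222 and 0.141). A second Spata5l1 probe was above background on 2 C arrays and 0 R arrays and was not tested.

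Spata5 itself had log2 signals of 2.57, 2.74, 2.53, 2.49 and 2.42 in R testes, against 2.77, 2.99, 2.44, 2.44 and 2.42 in C testes (difference -0.06, adjusted p = 0.690), with C1 and C2 again the highest. Of 12 partner genes of large-subunit maturation, 1 was called higher and 2 lower, with a median of -0.02. Cinp, the partner of both ATPases, was 1.33-fold lower in R testes (adjusted p = 0.0215), a call lost in 1 leave-one-out fit (adjusted p = 0.0529). Rrs1, an assembly factor of the large subunit, was 1.31-fold lower (adjusted p = 0.00754), and Nvl, a related ATPase of the same pathway, was 1.22-fold higher (adjusted p = 0.0132, and 0.457 with the array median).

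**Figure D3:**
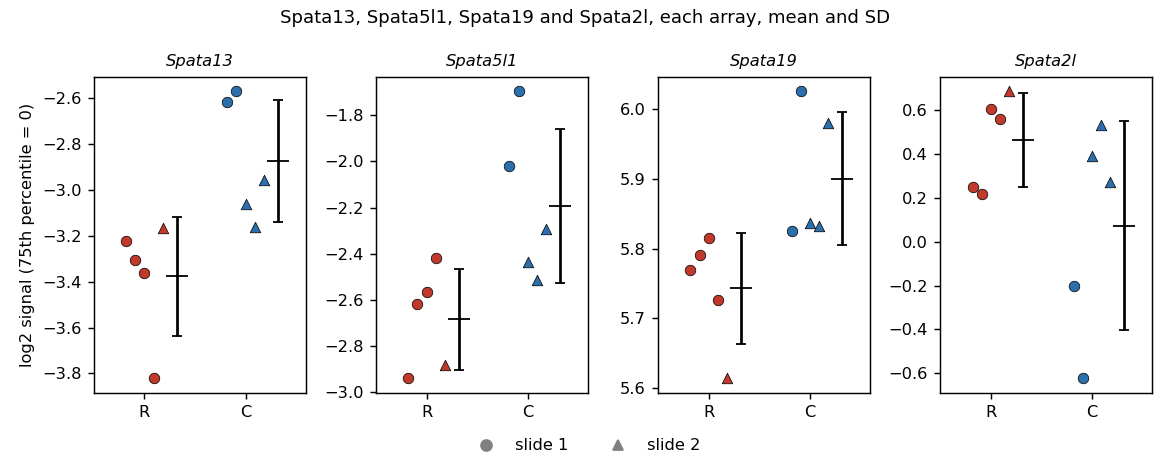
Log2 signal (vertical axis, the array's 75th percentile at 0, each panel on its own scale) of Spata13, Spata5l1, Spata19 and Spata2l in each R and C testis, circles for slide 1 and triangles for slide 2, with mean and SD (n = 5). Spata13 and Spata5l1 are highest in C1 and C2, and Spata2l is lowest in them.

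Among the midpiece genes, Spata19, whose protein lies at sperm mitochondria, had log2 signals of 5.77, 5.79, 5.81, 5.73 and 5.61 in R testes, against 5.83, 6.03, 5.84, 5.83 and 5.98 in C testes. All R values were below all C values, by 0.01 at the nearest, yet the difference of -0.16 was not called (adjusted p = 0.0918). A second Spata19 probe, designed on another transcript, was called lower at -0.22 (adjusted p = 0.0344), and the mean of both probes was called at -0.19 (adjusted p = 0.0343). Spata33, whose protein brings the phosphatase calcineurin to those mitochondria, had 5.79 to 5.85 in R testes and 5.76 to 5.81 in C testes (difference 0.04, 95% interval -0.07 to 0.15). Of 10 partner genes of the midpiece, 1 was called higher and 1 lower, with a median of 0.00. Ppp3r2, the testis calcineurin regulatory subunit, was 1.40-fold higher in R testes (adjusted p = 0.0220, and 0.0643 with the array median), and Gpx4, a selenoprotein of the mitochondrial capsule, was 1.20-fold lower (adjusted p = 0.0233). The Ppp3r2 call was lost in 2 and the Gpx4 call in 3 leave-one-out fits.

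Spata6, needed in mice for the joint of head and tail, had a difference of 0.08 on its brightest probe (adjusted p = 0.447), with 3.09 to 3.34 in R testes and 2.93 to 3.29 in C testes. Another of its probes was called higher at 0.27 (adjusted p = 0.0347). Of 12 partner genes of head-tail coupling, 4 were called higher and 2 lower, with a median of 0.21. The array median as the reference moved every difference by -0.21, a shift as large as this median. Of the 4 called higher, only Hook1, Cep131 and Cntln were still called with it. Hook1, a microtubule linker of the spermatid manchette, was 1.89-fold higher in R testes (adjusted p = 0.00374), Cep131 was 1.58-fold higher (adjusted p = 0.0149), and Cntln was 1.49-fold higher (adjusted p = 0.00159). Another Cntln probe had the opposite sign. Oaz3, an antizyme of spermatids, was 1.30-fold lower (adjusted p = 0.00627). Spata46, of the sperm nuclear envelope, had a difference of 0.08 (adjusted p = 0.389).

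Spata17, a protein with calmodulin-binding IQ motifs, had a difference of 0.14 on its brightest probe (adjusted p = 0.192), and 1 of its other 2 probes was called higher at 0.27 (adjusted p = 0.0130). In all, 10 Spata genes had more than 1 tested probe. Of the 13 further probes, 10 had the sign of the brightest and 3 were called, those of Spata17, Spata6 and Spata19 given above. The 4 called genes each had 1 tested probe, so their differences have no second probe beside them.

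**Figure D4:**
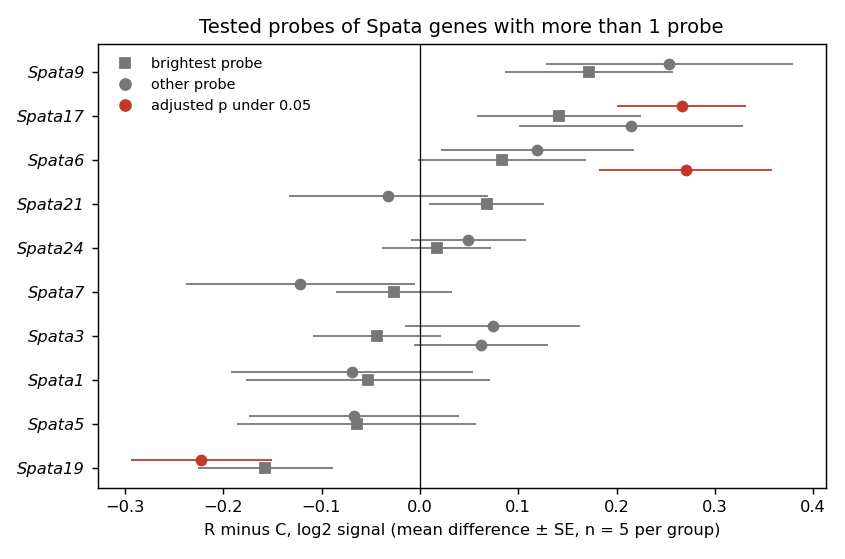
Difference in log2 signal (R minus C, horizontal axis) with its standard error for every tested probe of the 10 Spata genes with more than 1 (n = 5 per group), squares for the brightest probe and circles for the others. The 3 probes in red are called, and none of them is the brightest of its gene.

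Of the Spata genes with work outside the testis, Spata2 had a difference of -0.05 (adjusted p = 0.547). Its paralogue Spata2l had log2 signals of 0.25, 0.22, 0.60, 0.56 and 0.68 in R testes, against -0.20, -0.62, 0.39, 0.53 and 0.27 in C testes. C1 and C2 were its lowest arrays, and the difference of 0.39 was not called (adjusted p = 0.161). Of 10 partner genes of tumour necrosis factor signalling, 0 were called higher and 4 lower, with a median of -0.16. They were Tnfrsf1a, the receptor (1.51-fold lower, adjusted p = 0.0285), Ripk1, its kinase (1.22-fold, adjusted p = 0.0248), Otulin, a deubiquitinase (1.20-fold, adjusted p = 0.0225), and Ikbkg, the regulatory subunit of the IκB kinase. Ikbkg was above background on 2 R arrays and 4 C arrays, so no fold is given for it and its call rests on arrays near background. Another Ripk1 probe had the opposite sign. The Tnfrsf1a call was lost in 5, the Ripk1 call in 3 and the Otulin call in 2 leave-one-out fits.

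Spata7 had a difference of -0.03 (adjusted p = 0.737), with 3.57 to 3.74 in R testes and 3.61 to 3.72 in C testes. Of 6 partner genes of the connecting cilium, 3 were called higher and 0 lower, with a median of 0.36. The array median as the reference moved every difference by -0.21, and these 3 were still called with it. Rpgrip1, the protein that SPATA7 binds in photoreceptors, was 1.42-fold higher in R testes (adjusted p = 0.0187). Its paralogue Rpgrip1l was 1.48-fold higher (adjusted p = 0.00375), and Cep290, a ciliary gate protein, was 1.49-fold higher (adjusted p = 0.00682).

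Spata18, or MIEAP, which acts in mitochondrial quality control in human cells, had a difference of -0.02 (adjusted p = 0.772). Of 8 partner genes, 3 were called lower. Bnip3, a mitophagy receptor, was 1.67-fold lower in R testes (adjusted p = 0.0101), Atg5, an autophagy factor, was 1.48-fold lower (adjusted p = 0.0212), and Ulk1, an autophagy kinase, was 1.16-fold lower (adjusted p = 0.0439). The Ulk1 call was lost in 8 leave-one-out fits.

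The remaining Spata genes moved little. Spata9 had 2.17, 2.16, 2.31, 2.20 and 2.23 in R testes, against 1.85, 1.88, 2.13, 2.24 and 2.10 in C testes (difference 0.17, adjusted p = 0.128), again with C1 and C2 lowest. Spata45 had a difference of 0.13 (adjusted p = 0.205). It was the only Spata probe among the 2266 in the authors' deposited table, which lists it with a log2 ratio of 0.217 and a q-value of 0.515. That ratio is of another contrast, since the table has R1 on its control side and C5 on its test side. With the table's grouping, the Spata45 difference on the scale used here was 0.18. Spata20, a thioredoxin-like protein, differed by 0.11, Spata4 by 0.10, Spata21 by 0.07, Spata32 by 0.03 and Spata24 by 0.02. Spata25 differed by -0.01, Spata48 and Spata3 by -0.04 and Spata1 by -0.05. Over the 24 genes not called, differences ran between -0.16 and 0.44 and adjusted p values between 0.0918 and 0.933. A missed threshold does not show that these genes were equal in both groups.

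Spread within groups was uneven. The SD was larger among C testes for 22 of 28 Spata genes, with a median SD of 0.09 in R testes and 0.14 in C testes. Over all genes the medians were 0.12 in R testes and 0.20 in C testes. C2 was the lowest array for 10 of the 28 genes and the highest for 4, and C1 was the lowest for 6. For 21 of 28 genes the mean of C1 and C2 lay farther from the mean of C3 to C5 than the R mean lay from the C mean. C1 and C2 are the C arrays of slide 1, so among C testes slide and animal cannot be told apart.

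With slide as a block 51.5% of all genes were called, and 9 Spata genes were, 6 higher and 3 lower. The 5 genes added to the 4 were Spata31 (0.66, adjusted p = 0.0205), Spata31d1d (0.54, adjusted p = 0.0228), Spata2l (0.63, adjusted p = 0.00941) and Spata9 (0.25, adjusted p = 0.0230) on the higher side and Spata19 (-0.19, adjusted p = 0.0407) on the lower. The 4 genes called without the block had 0.94 for Spata31d1a, 0.54 for Spata31d1c, -0.57 for Spata13 and -0.66 for Spata5l1. Within slide 2, which holds 1 R testis and 3 C testes, 0 Spata genes and 0 of all genes were called by limma, while 1 Spata gene and 3516 genes had an unadjusted p under 0.05.

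**Figure D5:**
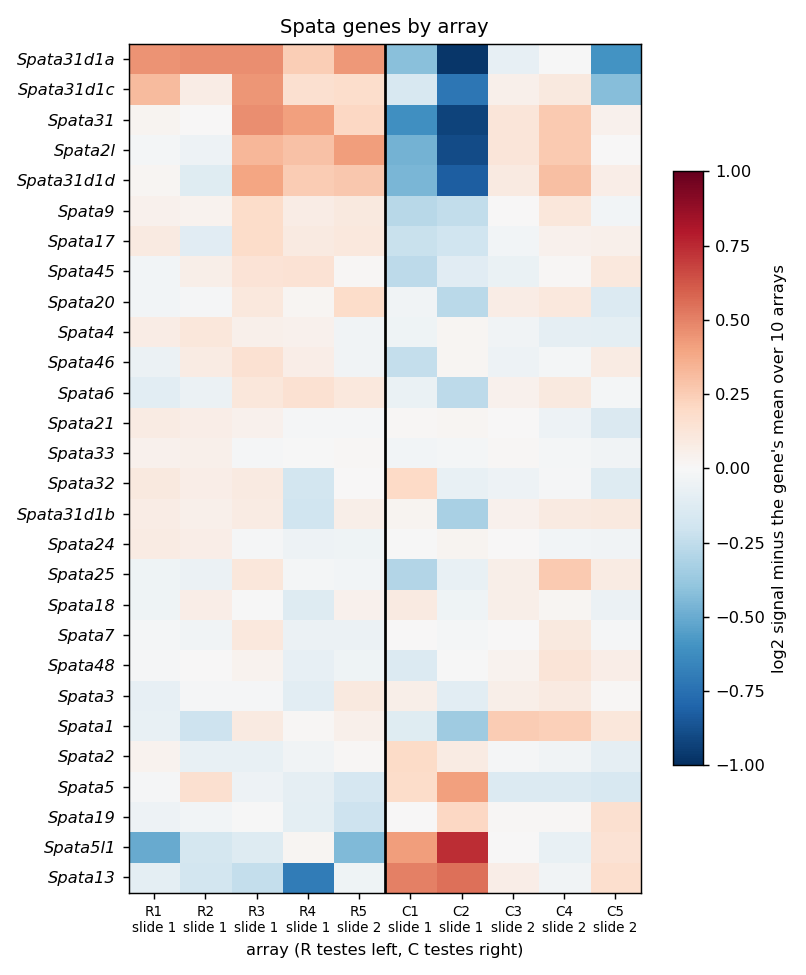
Log2 signal of each Spata gene (rows, ordered by their difference) in each testis (columns, R left and C right, with the slide named), minus the gene's mean over 10 arrays, in colour between -1 and 1. The upper rows are low in C1 and C2, and those of Spata31d1a and Spata31d1c are low in C5 as well. At the bottom, Spata13 and Spata5l1 are high in C1 and C2, and Spata19 is high in C2 and C5. In these rows C3 and C4 sit nearer to the R testes.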

How the data were processed

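RNA of single testes was hybridised to 1-colour Agilent arrays (dye Cy3). The authors deposited spot intensity values as the scanner software gave them, and the submitters' processing notes name that software as Agilent Feature Extraction 12.0.3.1. Its processed intensity has the background subtracted and spatial trends removed array by array, with no scaling between arrays, per the file headers, which also name mm9 as the build of the probe annotation. The authors' deposited table gives log2 ratios with p-values and q-values for 2266 probes. How the q-values were made is not given in the sources used here, and 10 of the table's per-sample columns were not used.

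From these files, outlier-flagged and control spots were left out, spots of a probe were averaged, and processed intensities were put on the log2 scale and set relative to the 75th percentile of their own array. A probe entered the test if it stood well above background on 5 or more of the 10 arrays (33851 of 56605). The labelled groups were compared by limma 3.58.1 under R 4.3.3, with lmFit and eBayes, 2-sided tests and Benjamini-Hochberg adjustment over all probes. Genes below an adjusted p of 0.05 are called. Folds are 2 to the power of the log2 difference. The fit was tested on simulated data. Accessions named 33767 probes through a GRCm38 gene table, and no gene coordinates of it are given since the files use another build. Promoters were aligned with Biopython 1.88.

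The number of arrays limits the precision. Neither litter, kit size nor RNA integrity is given per animal, so the p-values measure the spread between animals that may share a litter. The members, the 17 gene lists and the tests were chosen with earlier results of these data known. Every Spata gene is named or counted, with values by array for the called ones and for others chosen after values were seen, and lists name up to 4 members of smallest p. Some genes are not reported here. Alternatives were background correction, quantile scaling, the array median, the filter, slide, array weights, the mean of probes, the table's grouping and each array left out.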

Additional observations from a re-analysis of the deposited data

Results flagged for a closer look

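Of 56 groups of 5 testes examined, 6 held a testis whose distance to the nearest of the others, divided by the group's range, passed Dixon's limit of 0.71, and chance alone gives about 1 in 20. Spata31d1a was lower in R4, at a log2 signal of -0.73, than in the other R testes (-0.55 to -0.51). Spata31d1b was lower in R4, at 0.19, than in the other R testes (0.44 to 0.47). It was also lower in C2, at 0.06, than in the other C testes (0.41 to 0.48). Spata7 was higher in R3, at 3.74, than in the other R testes (3.57 to 3.61), and higher in C4, at 3.72, than in the other C testes (3.61 to 3.63). Spata25 was higher in R3, at 4.89, than in the other R testes (4.72 to 4.76). Of the 4 called genes only Spata31d1a is among these.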

How the results depend on the processing

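Without 1 array at a time, 1 to 2 Spata genes were called higher and 0 to 2 lower, with a median difference of 0.02 to 0.07. Between 24.5% and 38.3% of all genes were called in those fits. Normexp background correction, quantile scaling and a filter of all arrays each gave 2 higher and 2 lower, and the mean of a gene's probes gave 2 higher and 3 lower. In that order, 37.6%, 38.8%, 39.7% and 37.2% of the genes tested were called. Normexp was run on the median spot signal, chosen after seeing the data, and the planned version on the mean signal was not run. With no filter 1 was called higher and 0 lower, with 16.1% of the genes tested there called. Array weights also gave 1 higher and 0 lower, but with 40.3% of all genes called. With R1 and C5 left out together 1 was higher and 0 lower, and 15.9% of all genes were called. In the grouping of the deposited table, counts were 0 higher and 0 lower, and 0 genes of the array were called by limma, with 1286 genes and 1 Spata gene at an unadjusted p under 0.05. There Spata31d1a differed by 0.41 (adjusted p = 0.463). With slide as a block 6 were higher and 3 lower, with 51.5% of all genes called. Within slide 1 alone, with fewer arrays, 6 were higher and 2 lower, with 39.6% of all genes called. Within slide 2 alone, which holds 1 R testis, the median Spata difference was 0.04. The array median as the reference moved all R minus C differences by -0.21. It gave 1 Spata gene higher and 7 lower, with 42.7% of all genes called, and a Spata median of -0.17 against -0.23 over all genes. Of its 7150 calls 909 were on the higher side (12.7%), against 42.0% in the fit reported. Under it Spata31d1a was 0.62 (adjusted p = 0.00707) and Spata31d1c was 0.26 (adjusted p = 0.119), and Spata3, Spata7, Spata18, Spata19 and Spata48 were called lower as well as Spata13 and Spata5l1. Of 16 listed partner and marker genes called higher, 8 were not called with the array median, and all 34 called lower still were. No called Spata gene changed its sign under any of these alternatives, and the cause of the lost calls was not tested. No paired analysis was possible because the replicate numbers follow the order of deposit and pair no animals. Dim probes, such as that of Spata13, are those closest to background.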
